A study of Mus musculus with 10 samples.

Results

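The set comprised 41 genes of the p53 response and of apoptosis, chosen by symbol, and all 41 were among the 22891 genes of the deposited table. They were grouped by role into p53 and its regulators, p53 targets of arrest and stress, death receptors, BH3-only proteins, pore formers, antiapoptotic BCL2 proteins, caspases with their activator, and inhibitors of apoptosis with their antagonist. Values came from RNA sequencing of whole ovaries of mice aged 3 weeks that had not been stimulated, of a strain labelled C57/Bl6/N;129SvEv7. There were 5 ovaries with the genotype label Uba3 cKO, a conditional knockout, and 5 with the label Control. The labels name neither the Cre driver and the cells it acts in nor the deleted exons, and do not state that each ovary is from a different animal. The p-values therefore describe only the spread among these ovaries, which may be technical. Each value is a log2 normalised level as the authors deposited it, and the depth behind it is unknown. A gene was tested where its mean was at least 3.32 on this scale, which 40 of the 41 genes passed. Pmaip1, which encodes the BH3-only protein NOXA, was the exception, with 2.96, 3.13, 2.95, 3.13 and 3.00 in Uba3 cKO ovaries 1 to 5, against 2.95, 3.18, 3.07, 2.98 and 3.17 in control ovaries 1 to 5.

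The p53 protein, encoded by Trp53 in the mouse, is a transcription factor that is kept low by MDM2 and MDM4 and, once stabilised after DNA damage or other stress, switches on genes of cell cycle arrest, repair and cell death. Death through mitochondria is decided within the BCL2 family, where BH3-only proteins release the pore formers BAX and BAK from antiapoptotic members such as BCL2 and MCL1, after which APAF1 and caspases take the cell apart. In the ovary these genes are known for their part in the loss of oocytes, in which TAp63, a product of Trp63, guards against DNA damage, and in the atresia of follicles, in which granulosa cells die. MDM2 can also attach NEDD8, the small ubiquitin-like protein that the UBA3 enzyme activates, to p53.

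The targeted gene had nearly the same mean in both groups. Uba3 stood at 10.12, 10.13, 10.12, 10.03 and 10.22 in the Uba3 cKO ovaries, against 10.17, 10.09, 9.88, 10.37 and 10.09 in control ovaries, a difference of 0.0032 (exact two-sided permutation p = 1, where the smallest possible p is 0.00794). Because the deleted exons and cells are not named, this level checks nothing about the labels. Markers of the ovary's cell types were all present, with all 82 genes of 8 lists passing the filter and 0 called between the groups. The oocyte markers had a mean level from 9.20 to 10.06 in the Uba3 cKO ovaries and from 9.43 to 10.14 in controls, and the granulosa markers from 13.07 to 13.35 in the Uba3 cKO ovaries and from 13.08 to 13.23 in controls.

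For orientation, the promoters of Trp53, Mdm2, Bax and Ccng1 are shown as the RefSeq sequence of the 250 bases before each annotated start (build GRCm38.p6), because each holds a match to the p53 half-site consensus. The match is in capitals, and each line runs 5′ to 3′ on the gene's strand.
Trp53 (chr11:69580109-69580358, plus strand): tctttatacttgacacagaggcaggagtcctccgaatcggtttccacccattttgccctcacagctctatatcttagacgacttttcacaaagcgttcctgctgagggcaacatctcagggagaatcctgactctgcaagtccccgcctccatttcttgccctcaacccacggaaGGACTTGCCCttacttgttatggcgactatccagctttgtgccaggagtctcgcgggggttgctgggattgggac
Mdm2 (chr10:117710759-117711008, minus strand): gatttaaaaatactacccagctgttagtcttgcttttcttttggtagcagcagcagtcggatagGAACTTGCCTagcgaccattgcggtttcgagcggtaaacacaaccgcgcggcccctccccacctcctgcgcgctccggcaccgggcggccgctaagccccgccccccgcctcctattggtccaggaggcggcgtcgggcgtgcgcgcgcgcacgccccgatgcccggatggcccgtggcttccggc
Bax (chr7:45466899-45467148, minus strand): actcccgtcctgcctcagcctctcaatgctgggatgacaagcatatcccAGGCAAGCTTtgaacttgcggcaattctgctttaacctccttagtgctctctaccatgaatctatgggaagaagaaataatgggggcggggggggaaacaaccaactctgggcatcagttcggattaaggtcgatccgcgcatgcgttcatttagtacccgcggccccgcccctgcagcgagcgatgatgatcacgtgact
Ccng1 (chr11:40755287-40755536, minus strand): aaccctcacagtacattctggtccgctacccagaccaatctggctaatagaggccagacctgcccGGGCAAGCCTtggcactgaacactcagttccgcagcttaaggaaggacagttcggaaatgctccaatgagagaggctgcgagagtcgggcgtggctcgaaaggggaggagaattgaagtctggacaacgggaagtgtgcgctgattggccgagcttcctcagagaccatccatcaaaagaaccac
The p53 half-site consensus, 10 bases long and its own reverse complement, was searched on both strands. Windows were given for 33 of the 41 genes, 47 windows in all, of which 7 (14.9%) held a match, in Trp53, Mdm2, Bax, Ccng1, Aen, Sesn1 and Bmf. Of all 32851 windows of the same length 7.13% held one. No member window held a pair of half-sites spaced by 0 to 13 bases, the form of a full site, and 21 of all windows did. A match is only a likeness of letters and says nothing of binding in these ovaries.

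No difference between Uba3 cKO and control ovaries was called in the p53 and apoptosis genes. Of the 40 tested genes 0 were called by limma (adjusted p = 1 for every one of them), where the background over all 15629 genes was 0%. At an unadjusted p under 0.05 there were 0 members, against 1.79% of all genes by limma, and 0 members had groups that did not overlap, against 0.32% of all genes. In 24 of 40 members (60%) the mean was lower in Uba3 cKO ovaries, against 49.8% of all genes. The median difference (Uba3 cKO minus control) was -0.011 log2 units over the members and 0.0003 over all genes tested. Single differences ran from -0.33 for Phlda3 to 0.20 for Bcl2, and the widest 95% bounds were -0.67 for Phlda3 and 0.54 for Bcl2, or folds of 0.63 and 1.45. The interval lay within 0.5 log2 units either side of 0 for 36 of 40 members and within 0.25 for 20. These bounds are for whole ovaries, in which fewer cells of a type and less RNA per cell cannot be told apart, and a difference in a few cells would be diluted.

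**Figure D1:**
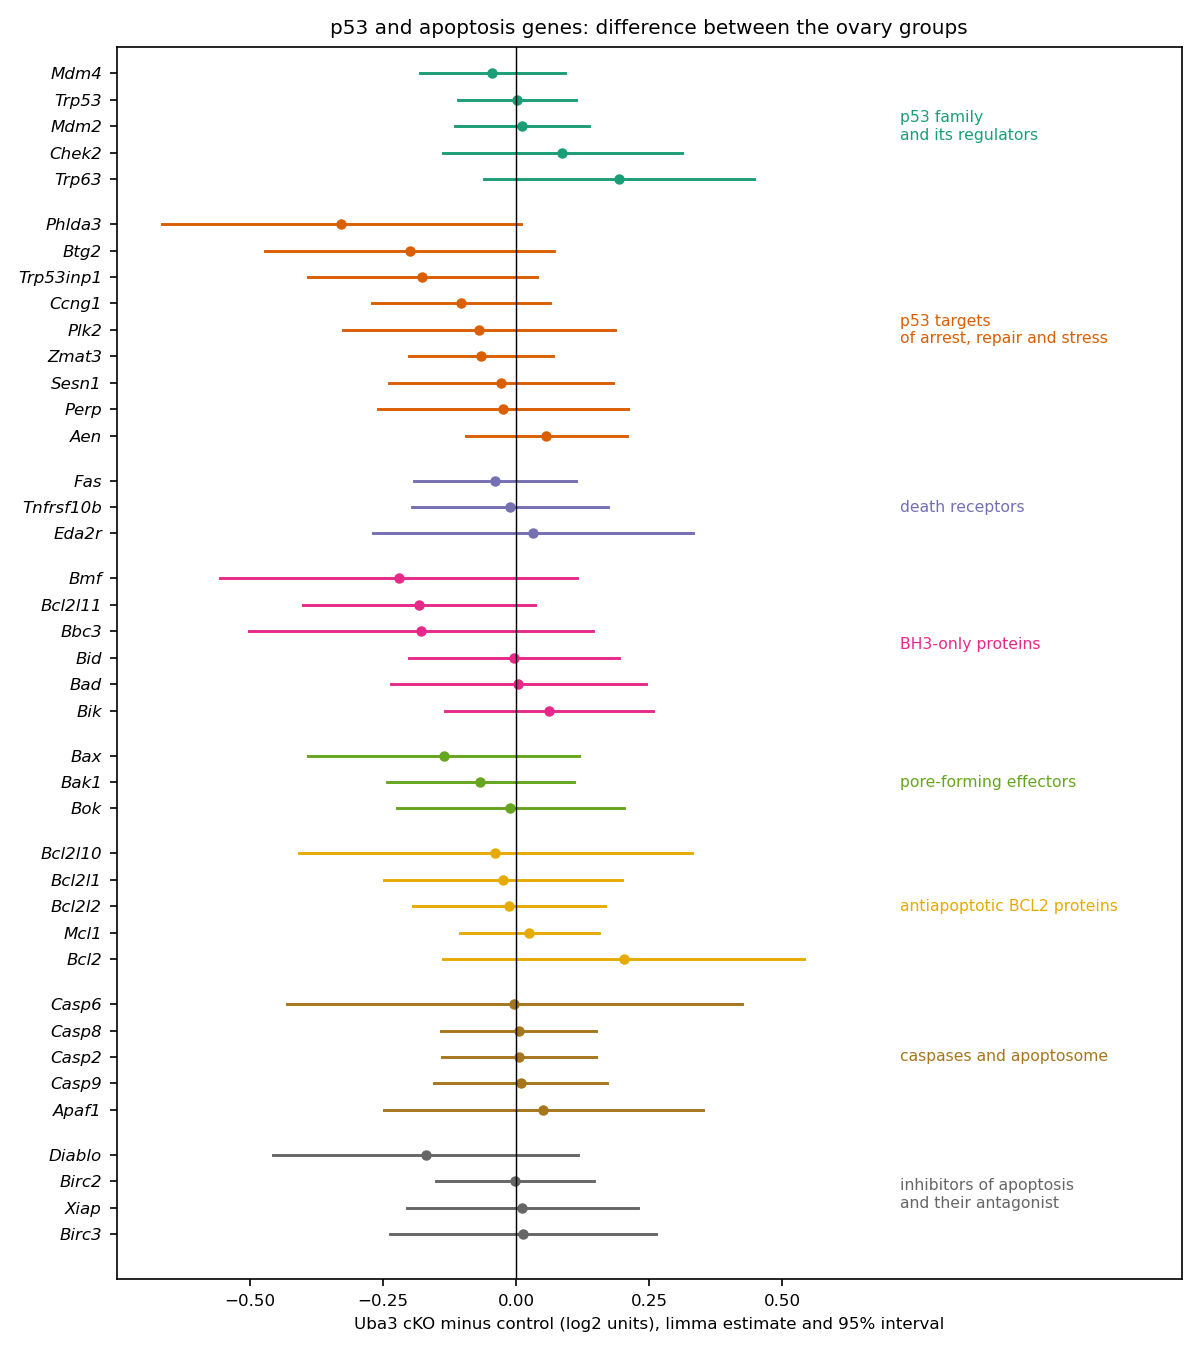
Difference between Uba3 cKO and control ovaries (horizontal axis, log2 units) for the 40 tested p53 and apoptosis genes, with points for limma estimates and bars for 95% intervals, coloured by role. All 40 intervals include 0, and the point farthest from 0 is Phlda3 at -0.33.

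Trp53 and Mdm2, p53 itself and its main regulator, had the smallest SDs over the 10 ovaries among the 41 genes, 0.047 and 0.064. Trp53 stood at 11.39, 11.38, 11.44, 11.37 and 11.34 in Uba3 cKO ovaries 1 to 5, against 11.36, 11.30, 11.45, 11.44 and 11.37 in control ovaries 1 to 5. The 10 values spanned 0.15 log2 units with the groups interleaved, and the difference was 0.0013 (95% interval -0.11 to 0.11). Mdm2, which encodes the ubiquitin ligase of p53 and is itself a p53 target, stood at 9.85, 9.84, 9.83, 9.89 and 9.83 in Uba3 cKO ovaries 1 to 5, against 9.80, 9.88, 9.69, 9.92 and 9.89 in control ovaries 1 to 5. The 5 Uba3 cKO values lay inside the range of the controls, and the difference was 0.011 (95% interval -0.11 to 0.14). Mdm4, which encodes a partner of MDM2 that blocks p53, differed by -0.045 (95% interval -0.18 to 0.091).

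Trp63, the p53 relative of oocytes and epithelia, stood at 6.83, 7.01, 6.83, 7.06 and 6.64 in Uba3 cKO ovaries 1 to 5, against 6.57, 6.99, 6.48, 6.55 and 6.81 in control ovaries 1 to 5. Control replicates 1, 3 and 4 lay below every Uba3 cKO ovary and replicates 2 and 5 among them, and the difference was 0.19 (95% interval -0.059 to 0.45) with an unadjusted limma p of 0.122. Chek2, the checkpoint kinase that activates p53 and TAp63 after DNA breaks, stood at 8.24, 8.22, 8.23, 8.30 and 8.48 in Uba3 cKO ovaries 1 to 5, against 8.38, 8.11, 7.88, 8.26 and 8.40 in control ovaries 1 to 5. The lowest ovary was control replicate 3, and without it the difference was 0.0062 in place of 0.087.

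The p53 targets of arrest and stress were on average lower in Uba3 cKO ovaries for 8 of 9 genes (88.9%), against 49.8% of all genes. Their median difference was -0.070, against 0.0003 over all genes. By limma 0 of 9 were called or had an unadjusted p under 0.05. The signs of Plk2, Sesn1 and Perp turned on leaving out 1 ovary. Of 25 other p53 pathway genes, 17 were higher and 8 lower. Phlda3, which encodes a repressor of AKT signalling, stood at 8.88, 8.62, 8.18, 8.22 and 8.01 in Uba3 cKO ovaries 1 to 5, against 8.93, 8.65, 8.84, 8.74 and 8.39 in control ovaries 1 to 5. Uba3 cKO replicates 3, 4 and 5 were below every control, whereas replicates 1 and 2 lay among them. The difference was -0.33 (95% interval -0.67 to 0.0096) with an unadjusted p of 0.0559, the smallest of the members, and it ran from -0.45 without Uba3 cKO replicate 1 to -0.24 without Uba3 cKO replicate 5. Trp53inp1, which encodes a stress protein that favours p53 activity and autophagy, stood at 10.43, 10.40, 10.84, 10.35 and 10.41 in Uba3 cKO ovaries 1 to 5, against 10.79, 10.62, 10.42, 10.68 and 10.80 in control ovaries 1 to 5. Uba3 cKO replicate 3 was the highest of all 10, and the other 4 Uba3 cKO values lay below every control but replicate 3, which gave a difference of -0.18 (95% interval -0.39 to 0.039).

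The differences of the other targets of this role ran from -0.20 to 0.057. Ccng1, the cyclin G1 gene and a strong p53 target in many tissues, stood at 10.62, 10.60, 10.52, 10.35 and 10.67 in Uba3 cKO ovaries 1 to 5, against 10.76, 10.61, 10.46, 10.75 and 10.69 in control ovaries 1 to 5. Its groups overlapped, with Uba3 cKO replicate 4 the lowest, and the difference was -0.10 (95% interval -0.27 to 0.064), or -0.15 without control replicate 3. Btg2, an antiproliferative gene that also responds to growth signals, differed by -0.20 (95% interval -0.47 to 0.072). Plk2, which encodes a polo-like kinase, differed by -0.070, Zmat3, an RNA-binding protein gene, by -0.067, Sesn1, a sestrin gene that restrains mTORC1, by -0.028, and Perp, a desmosomal protein gene, by -0.025. Aen, an apoptosis-enhancing nuclease gene, was the only one of the 9 with its mean higher in Uba3 cKO ovaries, by 0.057 (95% interval -0.094 to 0.21).

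**Figure D2:**
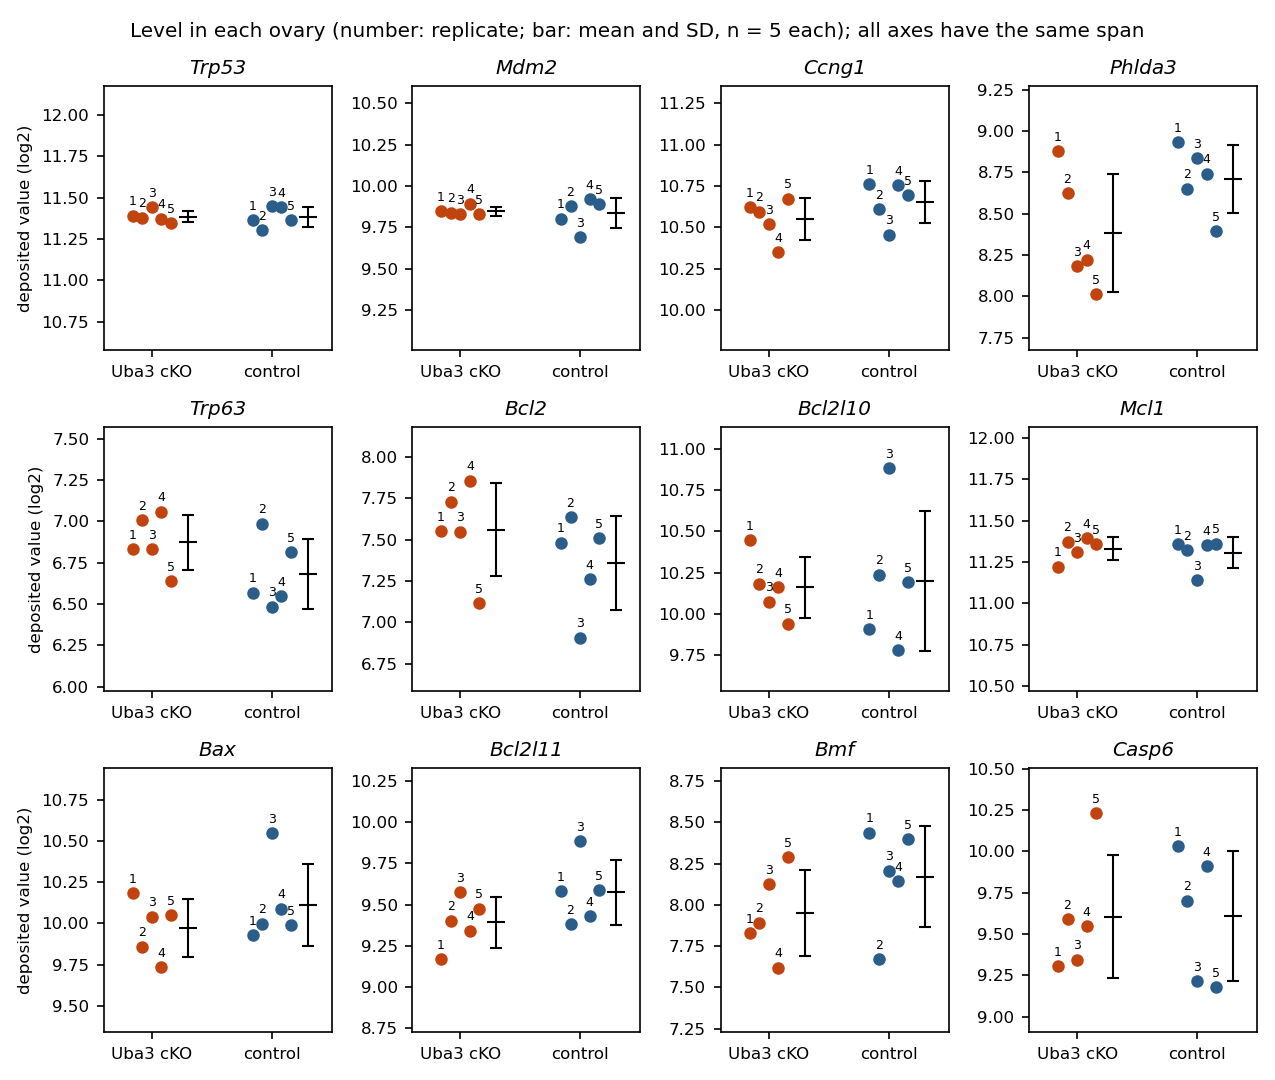
Deposited log2 value in each ovary (vertical axes, log2, all of the same span) for 12 members, with Uba3 cKO ovaries left and controls right of each panel, replicate numbers above the points, and the mean and SD beside them (n = 5 each). The groups overlap in every panel, Trp53 and Mdm2 vary least, and Bcl2l10 and Casp6 spread over more than 1 log2 unit.

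Other genes of the p53 pathway, from a list of 25 that were all tested, were not called either, with 17 higher and 8 lower on average in Uba3 cKO ovaries and a median difference of 0.042. Of these 25, 2 had an unadjusted p under 0.05 by limma, in opposite directions, against 280 of all 15629 genes (1.79%). Cdkn1a, which encodes the cell cycle inhibitor p21, stood at 7.40, 7.40, 7.56, 7.04 and 7.26 in Uba3 cKO ovaries 1 to 5, against 7.66, 7.58, 7.92, 7.65 and 7.41 in control ovaries 1 to 5, with a difference of -0.31 (95% interval -0.56 to -0.065). Ddb2, a p53 target that recognises damaged DNA for repair, stood at 7.502, 7.30, 7.27, 7.24 and 7.32 in Uba3 cKO ovaries 1 to 5, against 7.02, 7.18, 6.76, 7.27 and 7.24 in control ovaries 1 to 5, with a difference of 0.23 (95% interval 0.0031 to 0.46). For Cdkn1a, Uba3 cKO replicates 1, 2, 4 and 5 lay below every control, replicate 1 only just, and replicate 3 lay above control replicate 5. For Ddb2, replicates 1, 2, 3 and 5 of the Uba3 cKO ovaries lay above every control and replicate 4 below control replicates 4 and 5. Without control replicate 3, the highest for Cdkn1a and the lowest for Ddb2, the differences were -0.24 and 0.15. Chek1, a checkpoint kinase gene, was next by p, with a difference of 0.12 (95% interval -0.038 to 0.27).

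Of the 3 death receptors 0 were called, and all had small differences. Fas, the receptor of Fas ligand, was near the filter, at 4.19, 4.11, 4.07, 3.98 and 4.21 in Uba3 cKO ovaries 1 to 5, against 4.10, 4.21, 4.31, 4.02 and 4.10 in control ovaries 1 to 5, with a difference of -0.040 (95% interval -0.19 to 0.11). The groups overlapped, and low genes may be drawn toward their mean in these values. Eda2r, a p53 target and receptor of ectodysplasin A2, stood at 8.78, 8.64, 9.09, 8.76 and 8.73 in Uba3 cKO ovaries 1 to 5, against 8.69, 8.83, 8.27, 8.94 and 9.10 in control ovaries 1 to 5. The lowest of the 10 was control replicate 3, and the difference of 0.032 (95% interval -0.27 to 0.33) turned to -0.093 without it. Tnfrsf10b, the mouse TRAIL receptor, differed by -0.011 (95% interval -0.19 to 0.17).

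Of the BH3-only genes 0 were called, and 4 of 6 tested members were on average lower in Uba3 cKO ovaries. Bcl2l11, which encodes BIM, stood at 9.17, 9.40, 9.57, 9.34 and 9.47 in Uba3 cKO ovaries 1 to 5, against 9.58, 9.38, 9.88, 9.43 and 9.59 in control ovaries 1 to 5. Uba3 cKO replicate 1 was the lowest and control replicate 3 the highest, and the difference was -0.18 (95% interval -0.40 to 0.036), with an unadjusted p of 0.0949 by limma, or -0.10 without control replicate 3. Bmf, a BH3-only gene linked in other cells to detachment from the matrix, stood at 7.83, 7.89, 8.12, 7.62 and 8.29 in Uba3 cKO ovaries 1 to 5, against 8.44, 7.67, 8.21, 8.14 and 8.40 in control ovaries 1 to 5. Uba3 cKO replicate 4 and control replicate 2 were the lowest, and without the control the difference was -0.35 in place of -0.22 (unadjusted p = 0.179).

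Bbc3, which encodes PUMA, the BH3-only protein most closely tied to p53, stood at 5.91, 5.79, 5.95, 5.70 and 6.04 in Uba3 cKO ovaries 1 to 5, against 6.21, 5.94, 6.61, 5.83 and 5.71 in control ovaries 1 to 5. The highest ovary by a wide gap was control replicate 3, and the difference of -0.18 (95% interval -0.50 to 0.14) was -0.042 without it. Bid, cleaved by caspase-8 to link death receptors to mitochondria, differed by -0.0043, Bad, a BH3-only gene controlled by phosphorylation of its protein, by 0.0038, and Bik, another BH3-only gene, by 0.062.

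The pore formers Bax, Bak1 and Bok each had a slightly lower mean in Uba3 cKO ovaries. Bax stood at 10.18, 9.86, 10.04, 9.74 and 10.05 in Uba3 cKO ovaries 1 to 5, against 9.93, 9.999, 10.54, 10.09 and 9.99 in control ovaries 1 to 5. Here too control replicate 3 stood well above every other ovary, and the difference of -0.14 (95% interval -0.39 to 0.12) was -0.028 without it. Bak1 stood at 9.40, 9.42, 9.54, 9.38 and 9.47 in Uba3 cKO ovaries 1 to 5, against 9.35, 9.47, 9.76, 9.59 and 9.37 in control ovaries 1 to 5, with a difference of -0.067 (95% interval -0.24 to 0.11) that was -0.0033 without control replicate 3. Bok, a BAX relative first found in rat ovary, stood at 11.09, 10.95, 10.91, 10.97 and 11.07 in Uba3 cKO ovaries 1 to 5, against 11.11, 11.02, 11.33, 10.86 and 10.71 in control ovaries 1 to 5. The Uba3 cKO values lay inside the wider range of controls, and the difference was -0.011 (95% interval -0.22 to 0.20). That difference turned positive without control replicate 3, the highest ovary for Bok. Exons of Bax and Bak1, like those of Bad, Bid, Bcl2l2, Casp9 and Diablo, overlap another protein-coding gene. Their values may hold reads of that gene or miss reads shared with it.

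Of the antiapoptotic genes, Bcl2l10 and Mcl1 had the highest levels per length and Bcl2 the lowest. Mcl1, whose short-lived product is needed for oocyte survival in mice, stood at 11.22, 11.37, 11.31, 11.39 and 11.36 in Uba3 cKO ovaries 1 to 5, against 11.36, 11.32, 11.14, 11.35 and 11.36 in control ovaries 1 to 5. The extreme was again control replicate 3, here the lowest, and the difference was 0.025 (95% interval -0.11 to 0.16). Bcl2l1, which encodes BCL-XL, stood at 10.36, 10.48, 10.30, 10.38 and 10.002 in Uba3 cKO ovaries 1 to 5, against 10.15, 10.40, 10.61, 10.33 and 10.16 in control ovaries 1 to 5, with a difference of -0.025 (95% interval -0.25 to 0.20). Bcl2 stood at 7.55, 7.73, 7.55, 7.86 and 7.11 in Uba3 cKO ovaries 1 to 5, against 7.48, 7.64, 6.91, 7.26 and 7.51 in control ovaries 1 to 5. Uba3 cKO replicates 2 and 4 were above every control and replicate 5 below all controls but replicate 3, and the difference of 0.20 (95% interval -0.14 to 0.54) was 0.089 without control replicate 3 and 0.31 without Uba3 cKO replicate 5.

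Bcl2l10, an oocyte-rich member of the family in the mouse, had the widest span of the set. It stood at 10.45, 10.18, 10.07, 10.16 and 9.94 in Uba3 cKO ovaries 1 to 5, against 9.91, 10.24, 10.88, 9.78 and 10.19 in control ovaries 1 to 5. Control replicates 3 and 4 were the highest and the lowest of the 10 ovaries, 2.14-fold apart, and the difference was -0.039 (95% interval -0.41 to 0.33). Bcl2l2, which encodes BCL-W, differed by -0.013 (95% interval -0.19 to 0.17).

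The caspases and their activator had group means close together. Apaf1, the scaffold of the apoptosome, stood at 9.05, 9.48, 9.34, 9.40 and 9.65 in Uba3 cKO ovaries 1 to 5, against 9.54, 9.33, 8.84, 9.54 and 9.43 in control ovaries 1 to 5, with a difference of 0.051 (95% interval -0.25 to 0.35), or -0.073 without control replicate 3, its lowest ovary. Casp9, the initiator caspase that APAF1 activates, stood at 9.55, 9.76, 9.66, 9.73 and 9.80 in Uba3 cKO ovaries 1 to 5, against 9.83, 9.63, 9.58, 9.83 and 9.58 in control ovaries 1 to 5, with a difference of 0.0085 (95% interval -0.15 to 0.17). Casp2, an initiator caspase needed for normal loss of mouse oocytes, differed by 0.0047 (95% interval -0.14 to 0.15), and Casp8, the initiator of death receptors, by 0.0046 (95% interval -0.14 to 0.15). Casp6, an executioner caspase, had nearly equal means and the largest SD of the 41 genes over the 10 ovaries. It stood at 9.31, 9.59, 9.35, 9.55 and 10.23 in Uba3 cKO ovaries 1 to 5, against 10.03, 9.70, 9.22, 9.91 and 9.18 in control ovaries 1 to 5. Both groups held ovaries at the high and at the low end, 2.08-fold apart at the extremes, and 97.8% of the 2881 tested genes within 0.5 log2 units of its mean level had a smaller SD over the 10 ovaries. Casp6 is described in full because of its spread, after its values were seen.

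Among the inhibitors of apoptosis, Xiap, which blocks caspases directly, stood at 10.58, 10.88, 10.80, 10.91 and 10.92 in Uba3 cKO ovaries 1 to 5, against 10.97, 10.82, 10.44, 10.87 and 10.93 in control ovaries 1 to 5, with a difference of 0.012 (95% interval -0.21 to 0.23). Uba3 cKO replicate 1 was the second lowest and control replicate 3 the lowest. Diablo, which encodes the SMAC protein that mitochondria release to displace XIAP, stood at 8.33, 7.90, 8.07, 7.97 and 8.44 in Uba3 cKO ovaries 1 to 5, against 8.02, 8.13, 8.62, 8.34 and 8.45 in control ovaries 1 to 5. Its highest ovary was control replicate 3, and the difference of -0.17 (95% interval -0.46 to 0.12) was -0.093 without it. Birc2 and Birc3, ubiquitin ligases of TNF receptor signalling, differed by -0.0021 (95% interval -0.15 to 0.15) and by 0.013 (95% interval -0.24 to 0.26).

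Further apoptosis genes, from a list of 25 of which 21 were tested, held 0 called genes and 0 with an unadjusted p under 0.05 by limma, with 8 higher and 13 lower on average in Uba3 cKO ovaries and a median difference of -0.010. The smallest p values belonged to Dffb, the caspase-activated DNase gene, with a difference of 0.15 (95% interval -0.069 to 0.37), Aifm1, the apoptosis-inducing factor gene, with 0.070 (95% interval -0.064 to 0.20), and Dffa, the inhibitor of that DNase, with 0.068 (95% interval -0.074 to 0.21). The 4 genes under the filter were Casp1, Hrk, Bcl2l14 and Cidea.

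Levels between genes were compared per length, as the mean log2 value over the 10 ovaries minus the log2 of the summed exon length in kilobases. The highest were Bok at 10.12, Bcl2l10 at 9.89, Mcl1 at 9.54, Bax at 9.39 and Trp53 at 9.37. Neighbours among these 5 were less than the sum of their SDs over the 10 ovaries apart. This sum is only a rough measure and not a test, since it ignores that all genes were measured in the same ovaries. It cannot decide the order of neighbours. Bok lay above Mcl1, Bax and Trp53, and Bcl2l10 and Mcl1 above Trp53, by more than that sum. Perp, next at 8.92, also lay below Trp53 by more than that sum. The lowest were Pmaip1 at 1.60, Fas at 3.09, Trp63 at 3.71, Bik at 4.07 and Bcl2 at 4.26. Within the antiapoptotic genes Bcl2 thus stood far below Bcl2l10, Mcl1 and Bcl2l1. Within the BH3-only genes Bid at 6.99, Bad at 6.51 and Bcl2l11 at 6.48 stood above Bmf at 5.67, Bbc3 at 4.88 and Bik. Exons of Bax, Bid and Bad overlap another gene, so their levels may be too high or too low.

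Levels of the members were also set against the mix of cells in each ovary. Of 320 relations between the 40 tested members and the mean levels of 8 marker lists over the 10 ovaries, 0 passed adjustment, with a smallest adjusted p of 0.604 for Pearson's r and 0.282 for Spearman's rho (permutation test, 100000 resamples). Unadjusted p-values under 0.05 numbered 20 of the 320 by each measure. Chance gives about 1 in 20 at this level, which is of the same order, and the share over all genes was not computed. The smallest unadjusted Pearson p-values, picked out after they were seen, belonged to Birc3 with the oocyte markers, Casp8 with the epithelial markers and Bcl2l1 with the oocyte markers. Birc3 had r = 0.77 and rho = 0.65 (permutation p = 0.00586 and 0.049, adjusted p = 0.604 and 0.703), and r = 0.68 without the 2 ovaries farthest from the median marker level. Casp8 had r = 0.80 and rho = 0.90 (permutation p = 0.0067 and 0.00088, adjusted p = 0.604 and 0.282), and r = 0.73 without 2 such ovaries. Bcl2l1 had r = 0.78 and rho = 0.83 (permutation p = 0.00703 and 0.00454, adjusted p = 0.604 and 0.638), and r = 0.52 without 2. The oocyte-rich gene Bcl2l10 came after Birc3 and Bcl2l1 among the relations with the oocyte markers, with r = 0.71 and rho = 0.72 (permutation p = 0.0122 and 0.0235, adjusted p = 0.644 and 0.638), and r = 0.65 without 2.

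Control replicate 3 was the ovary in which most members reached an extreme. It held the highest value of 12 and the lowest value of 12 of the 41 members. The split followed transcript length, with 12 of 13 members under 3000 bases of exon above their mean in this ovary and 8 of 10 members over 6000 bases below it. The median deviation was 0.29 log2 units for the short members and -0.17 for the long ones. The limits of length were chosen with the values in view, and such counts were not made over all genes. Over 9182 genes this ovary also had a slope of -0.15 log2 units per doubling of length. The split by length is therefore not particular to the members.

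**Figure D3:**
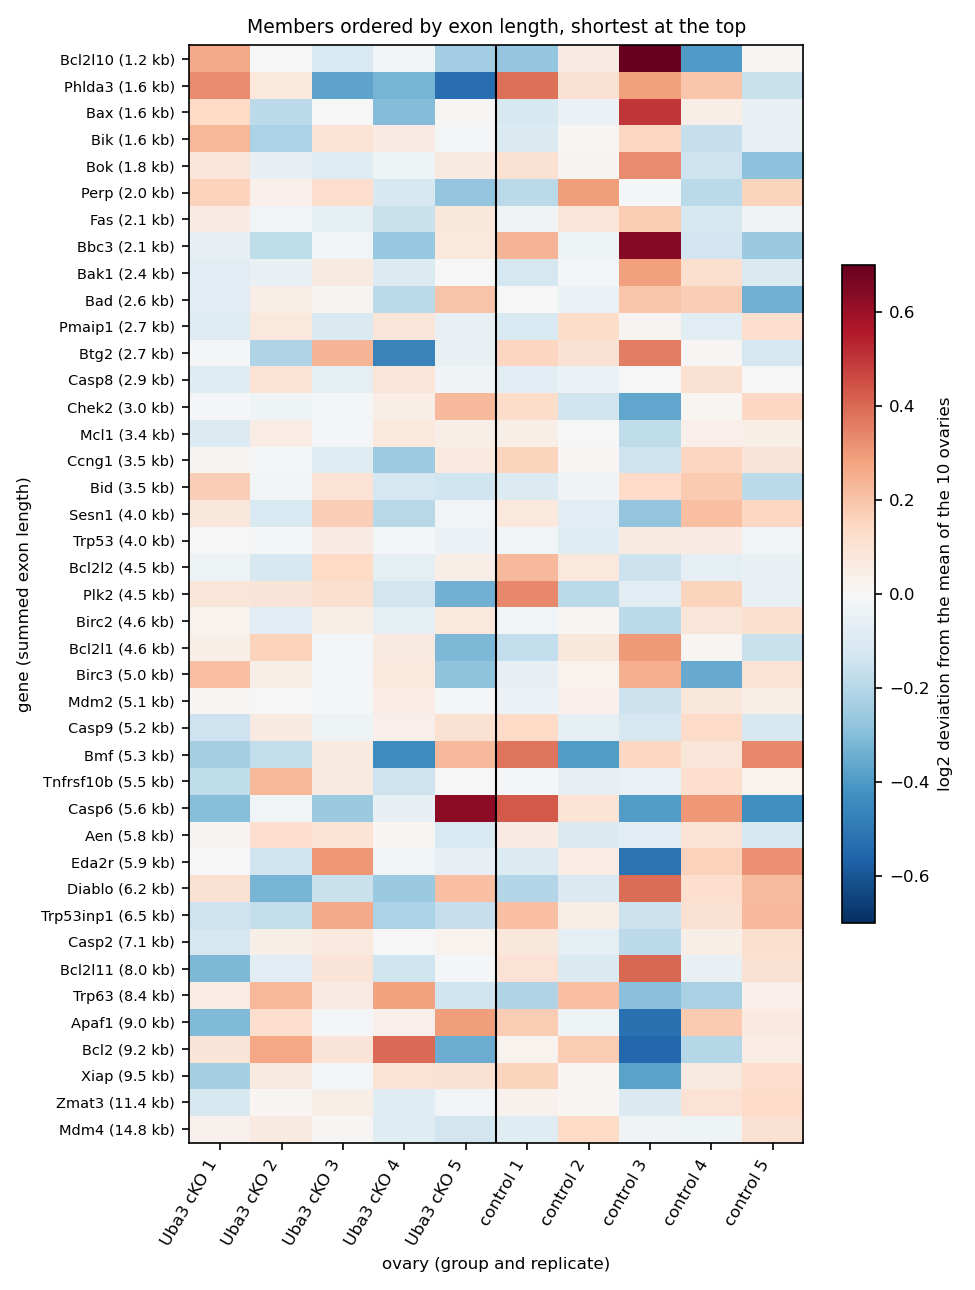
Deviation of each of the 41 members from its mean over the 10 ovaries (colour, log2 units), with genes in rows from the shortest exon length at the top to the longest at the bottom, and Uba3 cKO ovaries left of controls. Control replicate 3 is mostly above the mean in the upper rows and mostly below it in the lower rows, from 12 of 13 genes under 3000 bases above to 8 of 10 over 6000 bases below.

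Each ovary was also given a length slope, found by regressing the deviations of 9182 genes (mean level 8 or more) on log2 exon length. The slopes were -0.060, 0.037, -0.0067, 0.053 and 0.021 log2 units per doubling of length in Uba3 cKO ovaries 1 to 5, against 0.034, 0.0061, -0.15, 0.012 and 0.058 in control ovaries 1 to 5. Control replicate 3 and, less so, Uba3 cKO replicate 1 stood apart from the other 8. With the group in the model, 10 of 40 members followed the slope by limma (adjusted p under the threshold of 0.05 over all genes), which is 25%, against 20.5% of all genes. The 2 shares are near each other, so following the slope is not particular to the members. Of the 10, Xiap, Apaf1, Mcl1, Casp2 and Chek2 rose with the slope, and Bax, Bcl2l10, Bbc3, Bok and Bak1 fell with it. The slope is defined by length, so long genes tend to rise and short genes to fall with it. For a slope higher by 0.1, Xiap changed by 0.26 ± 0.033 log2 units (SE, adjusted p = 0.000913) and Bax by -0.30 ± 0.043 (adjusted p = 0.00134). Without control replicate 3 no member and no other gene was called by limma, while all 10 members kept the sign of their change and 4 of them, Xiap, Bax, Apaf1 and Mcl1, had an unadjusted p under 0.05. The change without that ovary was 0.28 ± 0.065 for Xiap (adjusted p = 0.107), -0.32 ± 0.086 for Bax (adjusted p = 0.146), 0.32 ± 0.13 for Apaf1 and 0.13 ± 0.054 for Mcl1, where all 10 ovaries gave 0.26 ± 0.033, -0.30 ± 0.043, 0.34 ± 0.064 and 0.12 ± 0.028. These 4 were singled out by their p in the fit without control replicate 3, a choice that favours large changes there. Their changes were about as large without that ovary, with larger standard errors. Those of Bcl2l10, Bbc3 and Bak1 were smaller by more than 1.5 times without that ovary, at -0.17 ± 0.17, -0.16 ± 0.17 and -0.075 ± 0.092. All 10 ovaries gave -0.39 ± 0.092, -0.32 ± 0.088 and -0.15 ± 0.048. Bok and Chek2 were also smaller, at -0.13 ± 0.11 and 0.14 ± 0.12, against -0.20 ± 0.057 and 0.20 ± 0.062 with all 10. Casp2 changed by 0.13 ± 0.0695 without that ovary and by 0.13 ± 0.035 with it. Without Uba3 cKO replicate 1 as well, 9 of the 10 kept their sign, Bcl2l10 being the exception. The changes were then 0.18 ± 0.11 for Xiap, -0.34 ± 0.15 for Bax, 0.0655 ± 0.19 for Apaf1 and 0.0985 ± 0.094 for Mcl1. Apaf1 was thus far smaller without both ovaries. The 10 members had been picked from the fit that includes both. The slope itself was computed from the genes tested, members included.

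**Figure D4:**
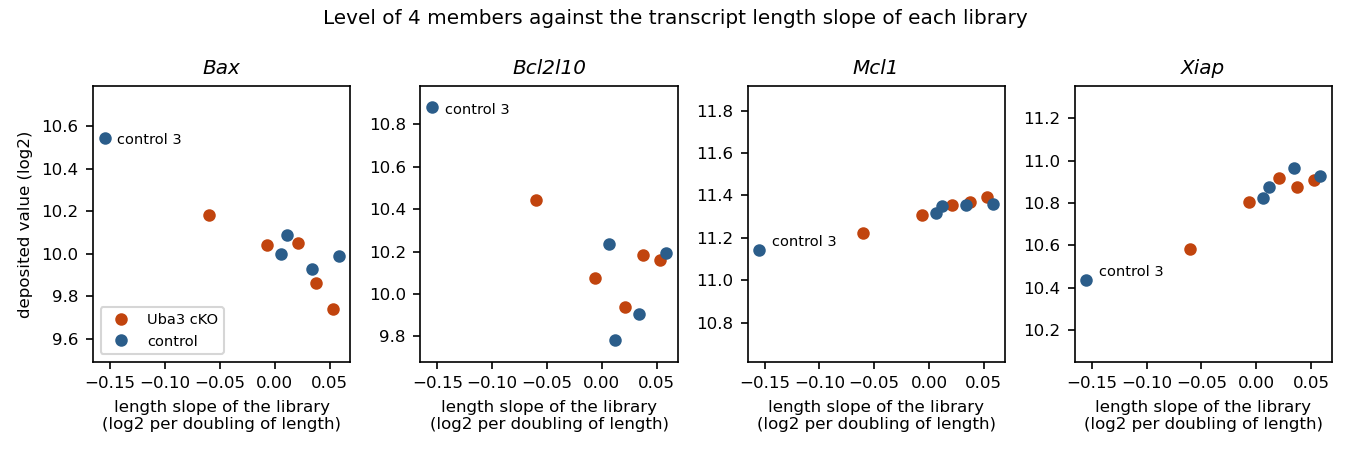
Deposited log2 value of Bax, Bcl2l10, Mcl1 and Xiap (vertical axes, log2, all of the same span) against the length slope of the library (horizontal axis, log2 units per doubling of exon length), 1 point per ovary. Control replicate 3 lies at a slope of -0.15, with the highest Bax and Bcl2l10 and the lowest Mcl1 and Xiap of the 10 ovaries.

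When the slope was added to the model, a step decided on once the data had been seen, the comparison of Uba3 cKO with control ovaries still called 0 of 40 members. Phlda3 then differed by -0.30, Bcl2l11 by -0.16, Bax by -0.082 and Bbc3 by -0.12.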

How the data were processed

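The authors deposited 1 table of normalised values on a log2 scale, from -0.21 to 20.19, with library medians from 6.29 to 6.44; the transform is not given in the sources used here. DESeq2, featureCounts, STAR and fastp are listed, with the build GRCm39, per the submitters' processing notes, with no versions or roles. Genes with means of 2 to 4 had a median SD of 0.085 across libraries, against 0.174 for means of 6 to 8, so differences of low genes may be understated. RNA was isolated with PicoPure, and TruSeq libraries were run on a NovaSeq, per the labels' protocols. No counts could be recovered, and no interval for counting error is given.

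Symbols were found for 22188 of 22891 identifiers. The filter was a linear mean of 10 or more (3.32 in log2), which kept 15629 genes. limma 3.58.1 (R 4.3.3) was run with trend and without covariates, with Benjamini-Hochberg adjustment over all genes kept (threshold 0.05). The linear values that the design had assumed were replaced by the deposited log2 values. Differences are Uba3 cKO minus control. The fits were tested on simulated data. Exon lengths came from GENCODE M21 (GRCm38), used only for lengths and names. Exons of 7 members overlap another protein-coding gene there (Bad, Bid, Bax, Bak1, Bcl2l2, Casp9 and Diablo), and whether the counting used strand is not given in the sources used here.

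The members, lists and alternatives were chosen with earlier results of these data known. Values in every ovary are given for Trp53, Trp63, Mdm2, Bax, Bok, Bcl2, Bcl2l1, Bcl2l10, Mcl1, Bbc3, Apaf1 and, from each role, the 2 members with the smallest p; each list of other pathway genes gives the 3 smallest. Ccng1 and Casp6 were added after their values were seen. Alternatives were other filters, normalisations, variance models, covariates, a replicate block and leaving out each ovary. The groups have no label of a batch.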

Additional observations from a re-analysis of the deposited data

Results flagged for a closer look

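Among 84 sets of 5 values (41 members and Uba3 in each group), 4 held an ovary far from the others, where the gap to its neighbour exceeded Dixon's critical share of 0.71 of the group's range. Chance flags about 1 in 20 such sets, which is of the same order. Trp53inp1 in Uba3 cKO replicate 3 stood at 10.84, with the next at 10.43. The other sets were all of control replicate 3, in which Bax stood at 10.54 with the next control at 10.09, Mcl1 at 11.14 with the next at 11.32, and Xiap at 10.44 with the next at 10.83. The transcript length slope of that library was -0.15, the lowest of the 10, and Bax, Mcl1 and Xiap were called as following the slope by limma. Without that library none of them was called, though their changes per 0.1 of slope, -0.32 ± 0.086, 0.13 ± 0.054 and 0.28 ± 0.065 (SE), were about as large as the -0.30 ± 0.043, 0.12 ± 0.028 and 0.26 ± 0.033 with it. With Uba3 cKO replicate 1 left out too, they were -0.34 ± 0.15, 0.0985 ± 0.094 and 0.18 ± 0.11.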

How the results depend on the processing

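In all 20 alternative settings 0 of the members tested were called by limma, where the number tested varied with the filter. The smallest adjusted p among the 40 members of the main fit was 0.999. The median difference of the members ran from -0.036 to -0.0023. Over all genes 0 were called (280 at an unadjusted p under 0.05), except that with the length slope as a covariate, chosen after seeing the data, 1 gene outside the set was called. Of 798 member differences under the alternatives 109 had the other sign, in 23 members whose main difference was small against its error, and 17 members kept their sign throughout. With array weights the sign turned to -0.020 for Mdm2, 0.0057 for Tnfrsf10b, -0.057 for Eda2r, 0.0083 for Bid, 0.031 for Bok, 0.035 for Bcl2l1, 0.083 for Bcl2l10, -0.011 for Casp2, -0.0074 for Casp9, -0.028 for Apaf1 and -0.041 for Xiap. With the length slope as a covariate it turned to -0.0022 for Mdm2, -0.011 for Eda2r, 0.022 for Bid, 0.024 for Bok, 0.0042 for Bcl2l1, 0.030 for Bcl2l10, -0.018 for Casp2, -0.00070 for Casp8, -0.0074 for Casp9, -0.0087 for Apaf1 and -0.034 for Xiap. Centring each library on its median gave -0.0039 for Trp53, -0.0014 for Bad, -0.00050 for Casp2 and -0.00060 for Casp8, the oocyte markers as a covariate -0.0019 for Bad and -0.00060 for Casp2, and the stroma markers -0.00030 for Casp8 and 0.0071 for Birc2. Leaving out 1 ovary at a time, differences spanned 0 in Trp53 from -0.019 to 0.017, Mdm2 from -0.025 to 0.032, Sesn1 from -0.10 to 0.021, Perp from -0.075 to 0.045, Plk2 from -0.13 to 0.0053, Fas from -0.073 to 0.00020, Tnfrsf10b from -0.070 to 0.032, Eda2r from -0.093 to 0.12, Bad from -0.079 to 0.053, Bid from -0.051 to 0.041, Bok from -0.085 to 0.070. The same held for Bcl2l1 from -0.071 to 0.051, Bcl2l2 from -0.053 to 0.041, Bcl2l10 from -0.14 to 0.13, Mcl1 from -0.017 to 0.052, Casp2 from -0.041 to 0.034, Casp6 from -0.16 to 0.10, Casp8 from -0.020 to 0.031, Casp9 from -0.019 to 0.046, Apaf1 from -0.073 to 0.13, Xiap from -0.080 to 0.071, Birc2 from -0.049 to 0.025 and Birc3 from -0.074 to 0.086. The Uba3 difference ran from -0.056 to 0.066, and its sign turned in 4 of these 10 settings. The cause of these turns was not tested. Members following the length slope numbered 0 to 10 on leaving out 1 ovary, with 0 without control replicate 3 (all 10 keeping their sign) and 5 without control replicate 5, and 0 without control replicate 3 and Uba3 cKO replicate 1 together. No relation with marker levels was called in 14 alternatives. Whether same-numbered ovaries were paired is not known. Deviations of same-numbered ovaries correlated at -0.34, 0.20, 0.099, 0.034 and 0.32, and 2 of 10 ovaries were closest to their own number. These values cannot decide it, since paired ovaries need not vary together. With the replicate block 0 members were called by limma. Phlda3 had the smallest unadjusted limma p of the members there, 0.0132, where 311 of all 15629 genes were under 0.05. The pseudocount alternative was not run, since the values are already on a log2 scale. Depth is unknown, and values of low genes such as Fas and Pmaip1 limit what could be seen.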

Other observations

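The genes on either side of Casp6 on chromosome 3, in the order of GENCODE M21, also varied widely between ovaries. The SD was 0.291 for Pla2g12a, against a median of 0.132 for genes with means of 8 to 10. It was 0.289 for Mcub, against 0.174 for means of 6 to 8. Pla2g12a, a secreted phospholipase A2 gene on one side, stood at 9.20, 9.56, 9.02, 9.56 and 9.99 in Uba3 cKO ovaries 1 to 5, against 9.49, 9.62, 9.54, 9.66 and 9.10 in control ovaries 1 to 5. Mcub, a gene of the mitochondrial calcium uniporter on the other side, stood at 7.23, 6.87, 6.93, 6.86 and 6.48 in Uba3 cKO ovaries 1 to 5, against 6.55, 6.87, 7.39, 6.64 and 7.09 in control ovaries 1 to 5. Uba3 cKO replicate 5 had the most Casp6 and Pla2g12a and the least Mcub of the 10 ovaries. Control replicate 3, with the second lowest Casp6, had the most Mcub, while its Pla2g12a was in the middle. Mcub has only 1318 bases of exon. It was highest in control replicate 3 and then Uba3 cKO replicate 1, the ovaries with the lowest length slopes (-0.15 and -0.060). Sec24b, beyond Mcub, varied little, from 10.70 to 10.95. These genes were named after their values were seen, and no test was made.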
